A study of Mus musculus with 24 samples.

Results

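The genes described here are the subunits of voltage-gated and related ion channels, taken as every gene whose symbol begins with Kcn (potassium channels), Scn plus a number and a or b (sodium channels) or Cacn (calcium channels). They are 128 of the 17953 genes measured in mouse cell lines that differ at the Huntington's disease gene Htt. The table for neural progenitor cells (NPC) held 113 of them among 16024 genes, and the table for mouse embryonic stem cells (mESC) held 126 among 17501. Both tables held 111, 15 were in the mESC table alone, and Kcne4 and Kcnk10 were in the NPC table alone. The symbol rule also takes in potassium channels that are not gated by voltage: 14 inward rectifiers (Kcnj), 12 tandem-pore channels (Kcnk) and 12 genes of calcium- or sodium-activated channels (Kcnma, Kcnmb, Kcnn, Kcnt, Kcnu). The rest were 38 pore subunits and 12 auxiliary subunits of voltage-gated potassium channels, and 10 pore and 4 beta subunits of sodium channels. There were also 10 pore subunits and 15 genes named as auxiliary subunits of calcium channels, and Kcnrg, a regulator that is no channel subunit. Classes were assigned by symbol alone, not by the function of the protein.

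RNA sequencing was done on 12 mESC and 12 NPC libraries, 2 biological samples per genotype in each cell type. The lines were wild type (WT), a knockout of Htt (KO), and 4 knock-ins, heterozygous for an Hdh allele (the mouse Htt gene) of 20, 50, 92 or 111 CAG repeats (Q20, Q50, Q92, Q111). The culture notes give 89 repeats for the line that the sample titles call Q92. The mESC were grown with serum and leukemia inhibitory factor on a feeder layer of irradiated mouse fibroblasts, and the NPC were derived from them in N2B27 medium and expanded on laminin with FGF and EGF. Each genotype is represented by a single line, so genotype and line cannot be told apart. The p-values of comparisons between genotypes measure the spread between libraries of a line. For slopes on CAG length, that spread also includes how far the line means depart from a straight line. In bulk RNA, fewer cells of a type and less RNA per cell also cannot be told apart.

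Voltage-gated channels open and close with the membrane potential: sodium channels carry the upstroke of the action potential, calcium channels couple depolarisation to calcium entry, and potassium channels repolarise the cell. Each channel has a pore-forming subunit, and auxiliary subunits that set its gating or its delivery to the membrane. Neural progenitors are not spiking cells, and most sodium and calcium channel genes are switched on as neurons mature, while inward rectifiers and tandem-pore channels set the resting potential of glia and progenitors.

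Deposited values recovered whole reads for 100% of entries, and the libraries held 48525333 to 118038952 assigned reads in NPC and 58546211 to 81502284 in mESC. Values are read counts scaled to library size (CPM) as normalised by the authors. Htt itself measured 137 and 177 CPM in WT NPC against 100.1 and 94.9 in KO NPC (log2 difference -0.67 ± 0.14 (SE), limma adjusted p = 0.0673). In mESC it measured 124 and 113 CPM in WT and 139 and 68.5 in KO, so the library labelled KO replicate 1 was not lower than WT. The progenitor genes Nes (353 to 1273 CPM), Vim (907 to 2862) and Fabp7 (1194 to 3921) were present in all 12 NPC libraries, and the pluripotency gene Pou5f1 was at 279.7 to 880.0 CPM in the mESC libraries. Both Q20 NPC libraries stood apart: Pou5f1 measured 90.1 and 87.4 CPM there against 0 to 0.405 in the other 10, and the 4 pluripotency genes in the NPC table summed to 107 and 106 CPM against 4.72 to 26.5. Pou5f1 and Nanog (12.996 and 13.7 against 0.190 to 1.63) carried that sum, while Esrrb was at 0.721 and 0.751 (0.723 to 7.74 elsewhere) and Klf4 at 3.19 and 3.83 (2.19 to 18.5 elsewhere). The same libraries carried Stmn2 at 103 and 128 CPM (0 to 5.51 elsewhere) and Dcx at 38.6 and 52.2 (0.969 to 9.03 elsewhere). Of 5 tested oligodendrocyte lineage markers 2 were higher and 1 lower in Q20 than in WT, and the list summed to 313 and 338 CPM in Q20 against 25.1 to 332 elsewhere, with Mbp at 47.6 and 36.5 (0.156 to 25.1 elsewhere) and Cspg4 at 5.17 and 4.26 (14.5 to 92.1 elsewhere). Of 10 neuron markers, 6 were higher and 2 lower in Q20 than in WT, and the list summed to 882 and 1045 CPM in Q20 against 1023 to 1718 elsewhere, with the abundant Map2 lower there (599 and 646 CPM against 714 to 1593). Stmn2, a marker of young neurons, was also at 173 to 391 CPM in mESC, in a table normalised separately. Of the 6 muscle genes Des was at 11.05 and 8.66 CPM in Q20 and 0 to 0.423 elsewhere, and Myod1 was at 0 in both Q20 libraries. The part of these markers in any result with Q20 was not tested, and counts are also given with WT in place of Q20 or with both Q20 libraries left out.

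Promoters are printed for 4 genes whose transcript was highest in Q20 NPC, as examples of windows with both, 1 or neither of 2 motifs that were searched. REST is a zinc-finger repressor that silences neuronal genes, channel genes among them, in other cells, and its recognition element joins TTCAGCACC to GGACAG with a short spacer. The 250 bases before the RefSeq start were searched for either motif on both strands (build GRCm38.p6), with the motif letters in capitals. The windows are Kcnh6 at chr11:106007898-106008147 (plus strand), Kcnj3 at chr2:55435720-55435969 (plus), Kcnt2 at chr1:140245468-140245717 (plus) and Scn1a at chr2:66440838-66441087 (minus).
Kcnh6: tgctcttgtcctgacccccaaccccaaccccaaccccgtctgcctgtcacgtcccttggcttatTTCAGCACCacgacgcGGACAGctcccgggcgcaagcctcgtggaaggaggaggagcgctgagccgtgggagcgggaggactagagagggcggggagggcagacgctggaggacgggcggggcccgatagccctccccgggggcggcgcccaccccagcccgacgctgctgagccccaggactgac
Kcnj3: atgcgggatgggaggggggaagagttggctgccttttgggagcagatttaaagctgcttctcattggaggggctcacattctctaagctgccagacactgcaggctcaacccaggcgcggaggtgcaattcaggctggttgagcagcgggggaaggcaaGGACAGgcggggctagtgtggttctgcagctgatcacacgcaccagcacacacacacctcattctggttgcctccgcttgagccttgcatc
Kcnt2: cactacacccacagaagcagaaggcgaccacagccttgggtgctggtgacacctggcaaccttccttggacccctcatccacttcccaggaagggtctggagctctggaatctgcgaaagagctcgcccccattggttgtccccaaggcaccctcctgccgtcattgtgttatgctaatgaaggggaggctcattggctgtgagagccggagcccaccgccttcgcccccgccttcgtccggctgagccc
Scn1a: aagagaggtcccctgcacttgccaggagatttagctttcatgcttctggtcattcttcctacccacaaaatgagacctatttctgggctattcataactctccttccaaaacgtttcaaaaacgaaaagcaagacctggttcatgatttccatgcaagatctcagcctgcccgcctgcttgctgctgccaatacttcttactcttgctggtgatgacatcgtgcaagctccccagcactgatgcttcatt
The Kcnh6 window held both motifs, at positions -186 and -170 from the start. Each motif was searched alone with no rule on the spacer, so this is not a call of the joined element. The Kcnj3 window held GGACAG at -91, and the Kcnt2 and Scn1a windows held neither. In the GENCODE annotation Kcnt2 starts at 140246158, past the end of its window. The bases just after its RefSeq start matched no GENCODE transcript of the gene. Of the 130 windows found for 94 of the 128 genes, 1 held TTCAGCACC, against 0.301% of the 32851 windows of all genes. GGACAG was in 20% of the channel windows (23 genes) and 18.7% of all windows. A match describes letters only, and no binding was measured. The Rest transcript was at 70.0 to 135 CPM over the 12 NPC libraries.

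Channel transcripts were scarce in both cell types. In NPC 23 of the 113 genes averaged at least 10 CPM, 50 lay between 1 and 10, and 40 (35.4%, against 22.1% of all genes) were under 1, with a median of 2.01 CPM against 18.4 for all genes. In mESC only 6 of 126 reached 10 CPM and 68 (54.0%, against 24.8%) were under 1, with a median of 0.897 against 11.3. Per kilobase of exon, abundant members in NPC were Kcnip3, a calcium-binding subunit of A-type potassium channels (16.4 CPM per kb), the A-type pore gene Kcnd2 (11.9), Kcnmb4, the neuronal beta subunit of large-conductance calcium-activated channels (11.5) and the A-type pore gene Kcnd3 (9.73). In mESC abundant members, by the mean over 12 libraries, were the tandem-pore genes Kcnk1 (14.3) and Kcnk5 (10.9), with Cacng7 (4.79) and Cacnb3 (4.70). For 59 of the 128 genes an annotated transcript overlaps on the other strand, and the strand setting of the counting is not given in the sources used here, so reads of the 2 strands may be mixed.

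Most channel genes that could be tested in NPC differed among the lines. With a filter of at least 1 CPM in at least 2 libraries, 82 of the 113 genes entered the tests, and 59 of 82 (72.0%) differed among the 6 genotypes at a limma adjusted p under 0.05, where the share over all 13206 tested genes was 38.0%. All 7 tested calcium channel pores and all 3 sodium channel beta subunits were among the 59, with 5 of 6 sodium channel pores, 5 of 6 tandem-pore genes, 17 of 23 voltage-gated potassium pores, 6 of 8 calcium- or sodium-activated genes, 7 of 11 calcium auxiliary, 5 of 9 potassium auxiliary and 4 of 9 inward rectifier genes. A gene that passed the filter through a line in which it is high had to differ, so these counts are set only beside the share of all genes. With both Q20 libraries left out, an alternative chosen after seeing the data, 36 of 82 differed, against 19.8% of all tested genes.

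**Figure D1:**
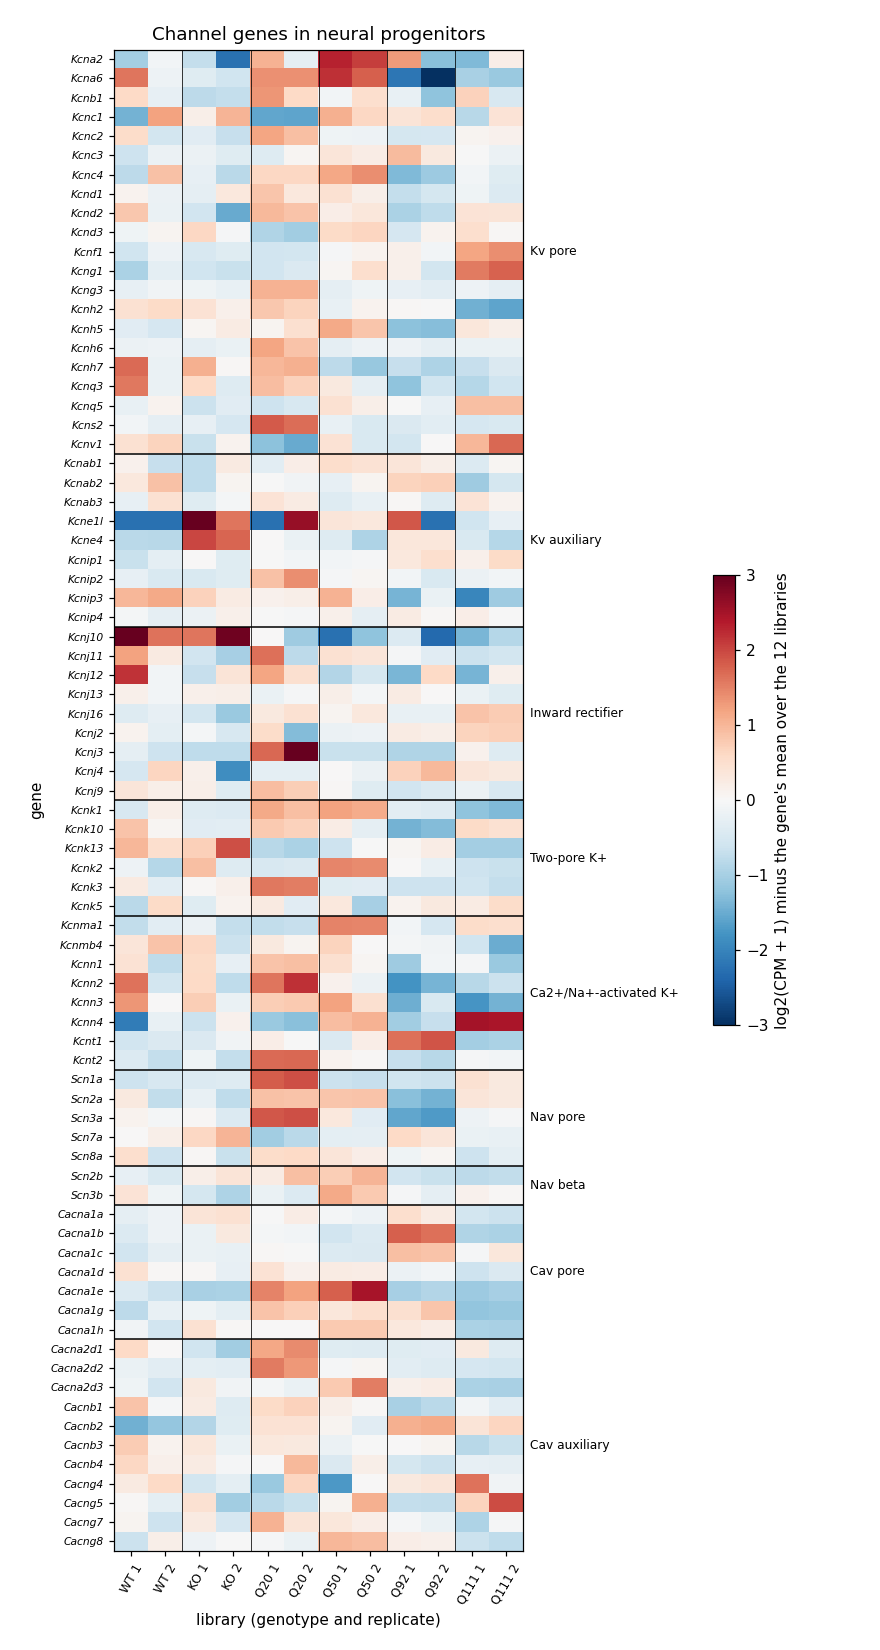
Heat map of 78 of the 82 tested channel genes (rows, by class) in the 12 NPC libraries (columns); colour is log2(CPM + 1) minus the mean of the gene over the 12 libraries, with values beyond 3 in either direction shown in the end colour. Blocks of red in the Q20 columns mark genes such as Kcns2, Scn1a and Kcnt2, and red in Q50, Q92 or Q111 marks genes such as Kcnma1, Cacna1b and Kcnn4.

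In 19 of 82 genes (23.2%) both Q20 libraries lay above all other 10 NPC libraries, against 11.2% of all tested genes. Both Q50 libraries lay above the rest in 14 (17.1%, against 5.68%), both Q92 in 5 (6.10%, against 7.96%) and both Q111 in 7 (8.54%, against 12.5%). Both Q111 libraries lay below the rest in 15 (18.3%, against 10.4%) and both Q92 in 13 (15.9%, against 8.12%), while no gene had both Q50 libraries lowest (4.90% of all tested genes) and 4 had both Q20 lowest (4.88%, against 8.03%). For WT and KO these counts were 0 and 3 above (3.66% for KO, against 1.13% and 2.54% of all tested genes), and 2 and 3 below (2.44% and 3.66%, against 1.44% and 2.04%). In 11 of the 19 genes highest in Q20, the Q20 mean was more than 3 times the highest other library, among them Kcnh6, Kcnj3, Kcns2, Kcng3, Kcnt2, Cacna2d2, Kcnk3, Scn1a, Scn3a and Kcnip2. Of the 19, 2 (Kcnh6 among them) were higher in every mESC library than in Q20 NPC. Another 11 were lower in every mESC library, in tables normalised separately. Neither the ratio to the highest other library nor the order against mESC was counted over all genes. These counts therefore do not show a trait particular to channel genes.

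**Figure D2:**
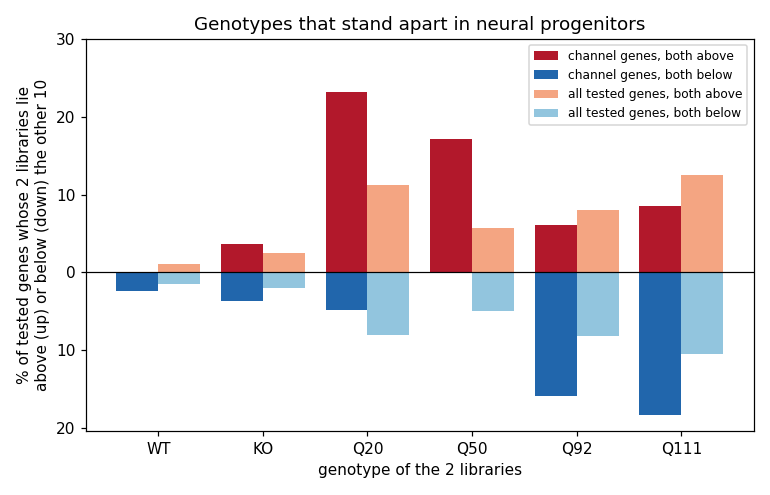
Share of tested genes whose 2 libraries of a genotype lie above (upward bars) or below (downward bars) the other 10 NPC libraries, for the 82 channel genes (dark) and all 13206 tested genes (light). Among channel genes Q20 (23.2%) and Q50 (17.1%) lead the upward bars and Q111 (18.3%) and Q92 (15.9%) the downward ones.

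Among sodium channel pores, Scn1a and Scn3a were highest in Q20. Both are brain channels that carry the sodium current of neurons, Scn3a mainly before birth. Scn1a measured 0.526 and 0.675 CPM in WT, 0.778 and 0.794 in KO, 7.24 and 7.96 in Q20, 0.503 and 0.459 in Q50, 0.545 and 0.500 in Q92 and 2.22 and 1.87 in Q111. Both Q20 libraries were above all others by a wide margin, and Q111 was the next. The log2 difference of Q20 from WT was 2.43 ± 0.12 (SE), limma adjusted p = 8.08e-06. Scn1a was lower than Q20 by a log2 difference of -2.54 ± 0.12 (SE), limma adjusted p = 6.40e-06 in Q50 and -2.50 ± 0.12 (SE), limma adjusted p = 5.59e-06 in Q92, but against WT the Q111 line was higher, with a log2 difference of 0.93 ± 0.12 (SE), limma adjusted p = 0.00270. Scn3a measured 4.10 and 3.58 CPM in WT, 3.84 and 2.59 in KO, 16.2 and 17.1 in Q20, 4.87 and 2.76 in Q50, 0.611 and 0.469 in Q92 and 3.26 and 3.66 in Q111, so Q20 was above and Q92 below every other library without overlap. The log2 difference was 1.87 ± 0.24 (SE), limma adjusted p = 0.00116 for Q20 against WT and -1.65 ± 0.24 (SE), limma adjusted p = 0.00600 for Q92 against WT. In these same Q20 libraries Pou5f1 and Stmn2 were high, as given above.

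These genes lie with Scn2a, Scn7a and Scn9a in a cluster at chr2:65457118-66784914 of GRCm38, and the members did not move as a block. Scn2a, the pore of the early axon segment, measured 6.78 and 2.79 CPM in WT, 4.42 and 2.74 in KO, 10.7 and 10.4 in Q20, 10.2 and 10.5 in Q50, 1.65 and 1.38 in Q92 and 7.08 and 6.73 in Q111, with Q20 and Q50 highest and Q92 lowest (-2.20 ± 0.32 (SE), limma adjusted p = 0.00174 on the log2 scale against Q20). Scn7a, a sodium-level sensor of glia, measured 1.52 and 1.82 CPM in WT, 2.86 and 4.08 in KO, 0.211 and 0.429 in Q20, 1.02 and 1.082 in Q50, 2.79 and 2.24 in Q92 and 1.18 and 1.15 in Q111. It was lowest in Q20, with a log2 difference from WT of -1.02 ± 0.17 (SE), limma adjusted p = 0.00502, and higher than Q20 in Q50, Q92 and Q111. Scn9a, a pain-pathway channel, did not pass the filter and measured 0.919 and 1.02 CPM in Q20 and at most 0.198 in every other library.

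Outside the cluster, Scn8a, the main pore of mature axons, measured 16.05 and 6.71 CPM in WT, 11.3 and 6.51 in KO, 16.6 and 17.1 in Q20, 14.3 and 12.8 in Q50, 9.91 and 11.5 in Q92 and 6.78 and 8.69 in Q111, and Q20 was highest by a narrow margin over the first WT library.

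The sodium channel beta subunits modify the gating of the pore and its place in the membrane. Scn3b was highest in Q50, at 9.86 and 7.43 CPM against 1.57 to 5.54 elsewhere, and rose there against Q20 by a log2 difference of 1.27 ± 0.24 (SE), limma adjusted p = 0.00841. Scn2b lay at 0 to 2.45 CPM over the 12 libraries.

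All 7 tested calcium channel pores differed among genotypes, and in Q111 against Q20 6 of 7 were lower, where 38.0% of all tested genes differed and 16.1% were lower. Cacna1e, the R-type pore, measured 0.771 and 0.491 CPM in WT, 0.187 and 0.221 in KO, 5.54 and 4.40 in Q20, 7.14 and 12.01 in Q50, 0.165 and 0.266 in Q92 and 0.108 and 0.170 in Q111. Only Q20 and Q50 exceeded 1 CPM. The log2 difference was 1.87 ± 0.22 (SE), limma adjusted p = 0.000713 for Q20 against WT, -2.29 ± 0.22 (SE), limma adjusted p = 0.000170 for Q92 against Q20 and -2.38 ± 0.22 (SE), limma adjusted p = 0.000168 for Q111 against Q20. Against WT it was higher in Q50 by 2.66 ± 0.22 (SE), limma adjusted p = 0.000270. The N-type pore Cacna1b, which triggers transmitter release in nerve endings, measured 7.01 and 8.54 CPM in WT, 8.20 and 11.9 in KO, 9.07 and 9.02 in Q20, 6.15 and 6.97 in Q50, 35.6 and 32.1 in Q92 and 4.63 and 4.45 in Q111. Q92 stood above all other lines and Q111 below them. The log2 difference of Q92 was 1.79 ± 0.21 (SE), limma adjusted p = 0.000494 against Q20 and 1.99 ± 0.21 (SE), limma adjusted p = 0.00144 against WT.

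The other calcium pores were highest in different lines, and 4 of them were lowest in Q111. The L-type pore Cacna1c measured 11.3 and 14.2 CPM in WT, 14.9 and 14.6 in KO, 17.8 and 17.1 in Q20, 12.9 and 12.6 in Q50, 33.3 and 32.2 in Q92 and 16.8 and 22.0 in Q111, with Q92 highest (0.87 ± 0.19 (SE), limma adjusted p = 0.0110 on the log2 scale against Q20). The P/Q-type pore Cacna1a lay at 6.38 to 15.3 CPM over the 12 libraries and was lowest in Q111, at 6.89 and 6.38. The T-type pore Cacna1h measured 48.0 and 48.4 CPM in Q50 and 13.8 and 13.5 in Q111, the highest and lowest lines. The T-type pore Cacna1g was at 0.596 and 0.652 CPM in Q111, under every other library (1.104 to 5.63). The L-type pore Cacna1d lay at 0.122 to 1.37 CPM, with 0.122 and 0.269 in Q111.

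Calcium auxiliary subunits moved in both directions. Cacnb2, a cytosolic beta subunit, measured 3.15 and 3.99 CPM in WT, 5.07 and 7.69 in KO, 14.1 and 14.1 in Q20, 10.8 and 7.91 in Q50, 22.5 and 23.7 in Q92 and 13.6 and 16.4 in Q111, and both WT libraries were below all others. It rose against WT in Q20 by a log2 difference of 1.73 ± 0.24 (SE), limma adjusted p = 0.00167 and in Q92 by 2.40 ± 0.24 (SE), limma adjusted p = 0.00108. The extracellular subunit Cacna2d2 was at 3.68 and 2.91 CPM in Q20 and 0.0992 to 0.670 elsewhere, and Cacna2d1 at 27.9 and 33.5 in Q20 and 5.27 to 18.5 elsewhere. Cacna2d3 was lowest in Q111, at 0.176 and 0.142 CPM against 0.515 to 5.55 elsewhere. Cacng5, by name a gamma subunit, measured 2.03 and 1.41 CPM in WT, 3.03 and 0.441 in KO, 0.696 and 0.847 in Q20, 2.11 and 5.21 in Q50, 0.793 and 0.766 in Q92 and 3.70 and 10.5 in Q111. It rose in Q111 against Q20 (2.05 ± 0.56 (SE), limma adjusted p = 0.0288 on the log2 scale), although its Q111 libraries differed by more than any WT, Q20 or Q92 pair.

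**Figure D3:**
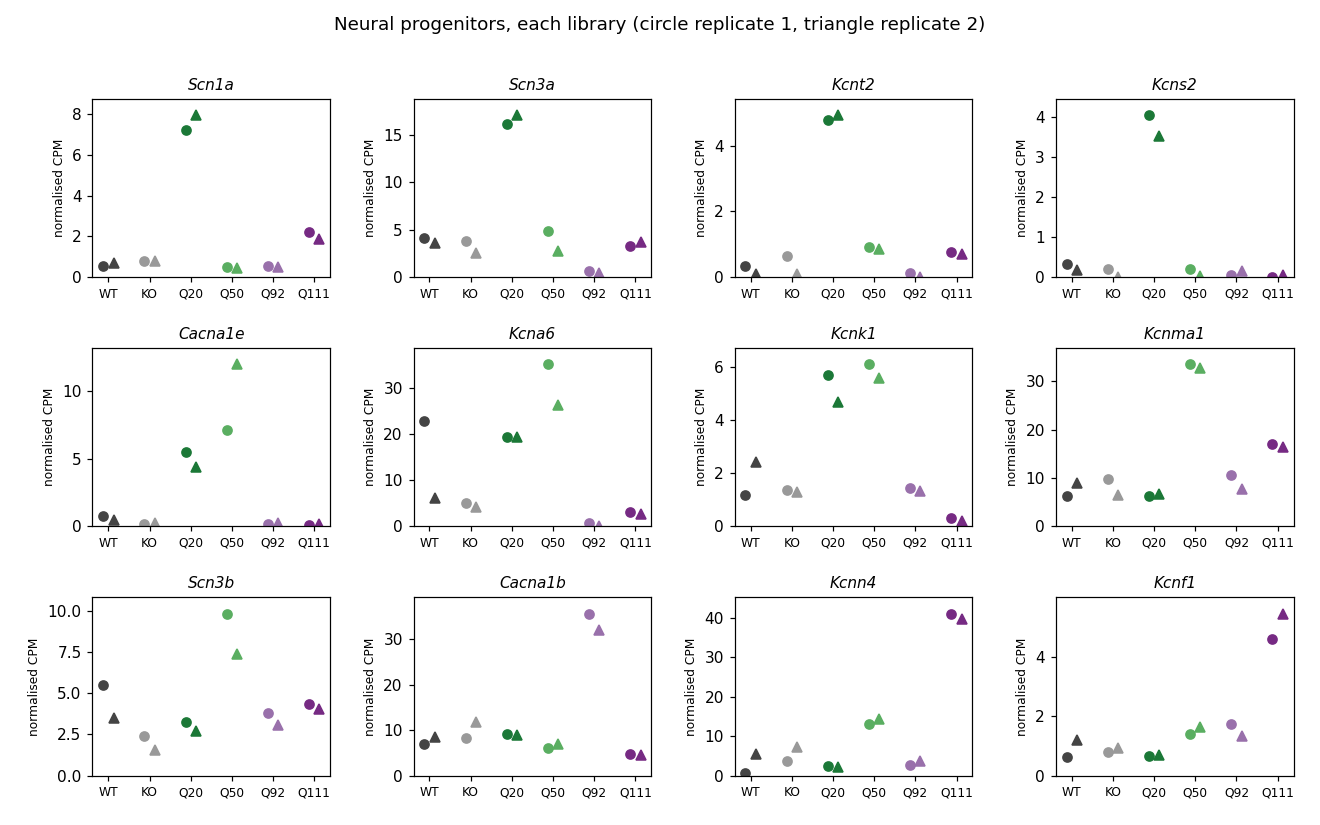
Normalised CPM of 12 channel genes in each NPC library, by genotype (circles replicate 1, triangles replicate 2; each panel has its own axis from 0). Scn1a, Scn3a, Kcnt2 and Kcns2 are highest in Q20, Cacna1e and Kcnk1 in Q20 and Q50, Kcnma1 and Scn3b in Q50, Cacna1b in Q92, and Kcnn4 and Kcnf1 in Q111.

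Voltage-gated potassium pores held the largest number of tested genes. Of 23, 6 changed in Q20 against WT (5 up, 1 down), 12 in Q50 against Q20 (5 up, 7 down), 14 in Q92 (1 up, 13 down) and 12 in Q111 (5 up, 7 down), where 14.5%, 18.8%, 25.8% and 28.3% of all tested genes were called. Kcna6, a delayed-rectifier pore of the Shaker family, measured 22.9 and 6.15 CPM in WT, 5.10 and 4.24 in KO, 19.5 and 19.5 in Q20, 35.2 and 26.4 in Q50, 0.760 and 0 in Q92 and 3.01 and 2.62 in Q111. It was lowest in Q92, with no read in 1 library, and next lowest in Q111, and the WT replicates lay on either side of Q20. The log2 difference from Q20 was -3.95 ± 0.51 (SE), limma adjusted p = 0.000859 in Q92 and -2.43 ± 0.51 (SE), limma adjusted p = 0.0102 in Q111, and from WT -3.30 ± 0.51 (SE), limma adjusted p = 0.00742 in Q92. Kcna2 of the same family was highest in Q50, at 32.2 and 27.4 CPM, but it varied between replicates (15.3 and 1.83 in Q92).

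Kcnq3, a pore of the M-current that damps repeated firing, measured 12.2 and 2.85 CPM in WT, 5.67 and 2.33 in KO, 7.38 and 6.12 in Q20, 4.35 and 2.62 in Q50, 0.908 and 1.89 in Q92 and 1.42 and 1.90 in Q111. It had a downward slope on CAG length, given per 91 repeats, of -1.66 ± 0.33 (SE), limma adjusted p = 0.0109, and its WT replicates were far apart. Kcnq5, a relative, was highest in Q111 at 13.7 and 13.8 CPM against 4.01 to 9.75 elsewhere (1.45 ± 0.21 (SE), limma adjusted p = 0.00175 on the log2 scale against Q20).

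Among ether-a-go-go channels, which repolarise slowly, Kcnh2 measured 12.1 and 13.1 CPM in WT, 11.8 and 9.53 in KO, 15.6 and 14.0 in Q20, 7.14 and 9.27 in Q50, 8.75 and 8.38 in Q92 and 2.52 and 2.18 in Q111. Both Q111 libraries were below every other, and the log2 difference of Q111 from WT was -2.02 ± 0.19 (SE), limma adjusted p = 0.000458. Kcnh6 was at 1.71 and 1.17 CPM in Q20 and at most 0.0826 elsewhere, where the other 10 libraries held 0 to 6 reads each. Kcnh7 measured 15.2 and 3.33 CPM in WT, 9.53 and 4.14 in KO, 8.91 and 9.39 in Q20, 1.90 and 1.28 in Q50, 2.10 and 1.61 in Q92 and 2.08 and 2.69 in Q111. It fell in Q50 against Q20 (-1.98 ± 0.56 (SE), limma adjusted p = 0.0426 on the log2 scale), with WT and KO replicates that spanned the Q20 values. Kcnh5 was lowest in Q92, at 0.347 and 0.297 CPM.

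Electrically silent subunits, which form no channel alone and modify the delayed rectifiers they join, differed by line. Kcns2 measured 0.333 and 0.184 CPM in WT, 0.207 and 0 in KO, 4.05 and 3.54 in Q20, 0.213 and 0.0353 in Q50, 0.0495 and 0.141 in Q92 and 0 and 0.0425 in Q111, with no library outside Q20 above 0.333 CPM (1.93 ± 0.14 (SE), limma adjusted p = 4.39e-05 on the log2 scale against WT). Kcng3 was likewise highest in Q20, at 1.59 and 1.60 CPM in Q20 and at most 0.160 elsewhere. Kcnf1 measured 0.631 and 1.20 CPM in WT, 0.778 and 0.918 in KO, 0.659 and 0.686 in Q20, 1.39 and 1.65 in Q50, 1.72 and 1.33 in Q92 and 4.60 and 5.44 in Q111, and Kcng1 0.0350 and 0.614 CPM in WT, 0.315 and 0.247 in KO, 0.323 and 0.461 in Q20, 1.083 and 1.83 in Q50, 1.21 and 0.360 in Q92 and 4.89 and 5.76 in Q111. For both, the Q111 libraries were above all others, with log2 differences from Q20 of 1.85 ± 0.18 (SE), limma adjusted p = 0.000194 for Kcnf1 and 2.18 ± 0.28 (SE), limma adjusted p = 0.000996 for Kcng1. Against WT these were 1.66 ± 0.18 (SE), limma adjusted p = 0.000762 and 2.29 ± 0.28 (SE), limma adjusted p = 0.00188. Kcnv1 measured 3.64 and 4.32 CPM in WT, 1.11 and 2.66 in KO, 0.447 and 0.182 in Q20, 3.58 and 1.47 in Q50, 1.29 and 2.38 in Q92 and 5.75 and 10.2 in Q111. Q20 was lowest and Q111 highest, with a log2 difference of -1.93 ± 0.40 (SE), limma adjusted p = 0.0138 for Q20 against WT and 2.73 ± 0.40 (SE), limma adjusted p = 0.00181 for Q111 against Q20.

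The A-type pores Kcnd2 and Kcnd3, which delay firing, were abundant in every line. Kcnd3 measured 80.2 and 91.9 CPM in WT, 135 and 85.3 in KO, 45.9 and 42.0 in Q20, 131 and 137 in Q50, 61.7 and 94.7 in Q92 and 124 and 90.0 in Q111. Q20 was below every other line, and the log2 difference from Q20 was 1.59 ± 0.27 (SE), limma adjusted p = 0.00474 in Q50 and 1.25 ± 0.27 (SE), limma adjusted p = 0.0122 in Q111. Kcnd2 measured 94.6 and 47.0 CPM in WT, 35.9 and 18.3 in KO, 107 and 97.9 in Q20, 62.2 and 68.2 in Q50, 27.6 and 31.5 in Q92 and 72.4 and 71.3 in Q111, with Q20 highest by a narrow margin over the first WT library, and was lower in Q92 than in Q20 by a log2 difference of -1.76 ± 0.36 (SE), limma adjusted p = 0.00882. Their subunit Kcnip3, also known as DREAM, measured 98.3 and 107 CPM in WT, 78.5 and 57.2 in KO, 52.8 and 55.1 in Q20, 100.0 and 55.6 in Q50, 17.8 and 41.9 in Q92 and 11.8 and 22.6 in Q111. It was lower than WT in Q111 (-2.58 ± 0.45 (SE), limma adjusted p = 0.00856 on the log2 scale) and in Q92 (-1.87 ± 0.45 (SE), limma adjusted p = 0.0405). Kcnc1, a fast high-threshold pore, was lowest in Q20 (12.1 and 11.9 CPM), but the WT replicates were 13.3 and 88.6 CPM and no test called it against WT.

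The potassium auxiliary subunit Kcne4, a membrane-spanning modulator of delayed rectifiers, rose in the knockout. It measured 0.105 and 0.0859 CPM in WT, 6.68 and 5.48 in KO, 0.944 and 0.675 in Q20, 0.483 and 0.0118 in Q50, 1.45 and 1.42 in Q92 and 0.406 and 0.0709 in Q111. Both KO libraries were above all other lines. The log2 difference of KO from WT was 2.69 ± 0.21 (SE), limma adjusted p = 0.00116. Kcne4 was 1 of 2 genes called of 82 (2.44%), both higher, where 1.42% of all genes were called (0.878% higher and 0.545% lower). At an unadjusted p under 0.05, 16 of 82 passed (19.5%, against 13.3% of all tested genes), and in the fit of only the 4 libraries of WT and KO none was called. With both Q20 libraries left out of the fit the same 2 genes were called, against 0.454% of all genes, and without WT replicate 2 there were 12 calls, 6 in each direction. The X-linked subunit Kcne1l measured 0 and 0 CPM in WT, 38.3 and 13.3 in KO, 0 and 28.0 in Q20, 5.07 and 4.88 in Q50, 16.2 and 0 in Q92 and 2.11 and 2.98 in Q111. In Q20 and in Q92 it was at 0 in 1 library and not in the other, and its log2 difference of KO from WT, 4.57 ± 1.61 (SE), limma adjusted p = 0.256, did not pass the test.

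Inward rectifiers had the smallest share of genes that differed among genotypes, 4 of 9. Kcnj3, a G-protein-gated pore of neurons and heart, measured 0.543 and 0.209 CPM in WT, 0.0887 and 0.0971 in KO, 5.14 and 29.8 in Q20, 0.174 and 0.176 in Q50, 0 and 0 in Q92 and 1.02 and 0.425 in Q111. Q20 was above all other libraries, but its 2 replicates differed from each other by more than any other line reached. The log2 difference of Q20 from WT was 3.33 ± 0.60 (SE), limma adjusted p = 0.00682. No read fell in either Q92 library, and with 3 reads in a Q92 library as the floor the lower of the Q20 libraries was at least 104-fold higher than Q92. Kcnj10, the potassium-buffering channel of astrocytes, measured 58.4 and 16.9 CPM in WT, 16.9 and 43.0 in KO, 4.88 and 1.78 in Q20, 0.232 and 1.54 in Q50, 3.37 and 0.156 in Q92 and 1.27 and 2.21 in Q111. It was lower than WT in Q20 by a log2 difference of -3.01 ± 0.82 (SE), limma adjusted p = 0.0440, in Q50 by -4.21 ± 0.82 (SE), limma adjusted p = 0.0202, in Q92 by -3.86 ± 0.82 (SE), limma adjusted p = 0.0272 and in Q111 by -3.59 ± 0.82 (SE), limma adjusted p = 0.0233, while KO overlapped WT. The 8 astrocyte markers summed to 4874 and 3118 CPM in WT, 3291 and 1961 in KO, 4008 and 3752 in Q20, 4042 and 3400 in Q50, 1126 and 1364 in Q92 and 1249.9 and 1262 in Q111, and their part in the result was not tested. Kcnj16, its partner subunit, was highest in Q111 at 22.1 and 20.8 CPM.

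Among tandem-pore channels, which leak potassium at rest, Kcnk1 measured 1.17 and 2.43 CPM in WT, 1.35 and 1.28 in KO, 5.68 and 4.66 in Q20, 6.09 and 5.60 in Q50, 1.44 and 1.34 in Q92 and 0.311 and 0.213 in Q111. Q20 and Q50 were above and Q111 below all other lines. The log2 difference was 1.17 ± 0.21 (SE), limma adjusted p = 0.00721 for Q20 against WT, 1.32 ± 0.21 (SE), limma adjusted p = 0.00906 for Q50 against WT and -1.11 ± 0.21 (SE), limma adjusted p = 0.0122 for Q111 against WT. Kcnk2, a mechanosensitive channel, measured 3.82 and 1.94 CPM in WT, 9.06 and 3.07 in KO, 2.83 and 2.98 in Q20, 13.7 and 13.4 in Q50, 4.34 and 3.61 in Q92 and 2.46 and 2.38 in Q111, with Q50 above all others and a log2 difference of 1.95 ± 0.39 (SE), limma adjusted p = 0.0238 from WT. Kcnk13 measured 4.34 and 2.82 CPM in WT, 3.42 and 9.26 in KO, 0.509 and 0.397 in Q20, 0.735 and 1.63 in Q50, 1.80 and 2.13 in Q92 and 0.311 and 0.312 in Q111 and was lower than WT in Q20 (-1.64 ± 0.37 (SE), limma adjusted p = 0.0215 on the log2 scale) and in Q111. The acid-sensitive Kcnk3 was at 3.96 and 3.78 CPM in Q20 and 0.0142 to 1.02 elsewhere, and Kcnk10 was lowest in Q92 at 0.231 and 0.328.

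Among calcium- and sodium-activated potassium channels, Kcnma1, Kcnn4, Kcnt1 and Kcnt2 were highest in 4 different lines. Kcnma1, the large-conductance pore, measured 6.32 and 8.89 CPM in WT, 9.85 and 6.42 in KO, 6.32 and 6.57 in Q20, 33.5 and 32.7 in Q50, 10.5 and 7.72 in Q92 and 17.1 and 16.3 in Q111. Q50 was above all others and Q111 came next. The log2 difference from WT was 2.001 ± 0.25 (SE), limma adjusted p = 0.00231 in Q50 and 1.05 ± 0.25 (SE), limma adjusted p = 0.0261 in Q111. Kcnn4, the intermediate-conductance channel of proliferating and immune cells, measured 0.718 and 5.38 CPM in WT, 3.72 and 7.15 in KO, 2.41 and 2.12 in Q20, 12.995 and 14.3 in Q50, 2.61 and 3.60 in Q92 and 41.0 and 39.6 in Q111. Q111 stood apart, with a log2 difference of 3.66 ± 0.53 (SE), limma adjusted p = 0.00178 from Q20 and 3.64 ± 0.53 (SE), limma adjusted p = 0.00419 from WT. Kcnt1, a sodium-activated pore, measured 1.21 and 1.45 CPM in WT, 1.42 and 2.07 in KO, 2.80 and 2.28 in Q20, 1.43 and 2.78 in Q50, 9.38 and 11.2 in Q92 and 0.623 and 0.709 in Q111, highest in Q92 (2.27 ± 0.23 (SE), limma adjusted p = 0.00128 on the log2 scale against WT). Its relative Kcnt2 measured 0.350 and 0.0982 CPM in WT, 0.631 and 0.0971 in KO, 4.80 and 4.93 in Q20, 0.928 and 0.847 in Q50, 0.116 and 0 in Q92 and 0.758 and 0.695 in Q111, highest in Q20 (2.27 ± 0.19 (SE), limma adjusted p = 0.000104 against WT).

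The small-conductance genes Kcnn2 and Kcnn3, which slow firing after a burst, were lower in Q92 and Q111 than in Q20. Kcnn2 measured 29.0 and 5.62 CPM in WT, 13.6 and 4.76 in KO, 28.6 and 43.0 in Q20, 9.57 and 7.64 in Q50, 1.82 and 2.67 in Q92 and 4.44 and 5.19 in Q111. The Q92 libraries were below all others, and the WT replicates were far apart. The log2 difference from Q20 was -3.49 ± 0.67 (SE), limma adjusted p = 0.00695 in Q92 and -2.64 ± 0.67 (SE), limma adjusted p = 0.0226 in Q111, and Q20 against WT gave 1.36 ± 0.67 (SE), limma adjusted p = 0.2504. Kcnn3 measured 14.5 and 5.25 CPM in WT, 9.37 and 4.41 in KO, 9.26 and 9.69 in Q20, 13.2 and 7.61 in Q50, 1.24 and 3.52 in Q92 and 0.799 and 1.30 in Q111, with Q92 and Q111 below every other line and a log2 difference of -2.27 ± 0.53 (SE), limma adjusted p = 0.0245 for Q111 against WT. Kcnn1 was highest in Q20 at 12.4 and 12.7 CPM.

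In counts, Q20 against WT called 22 of 82 genes, 18 higher and 4 lower, where 14.5% of all genes were called (9.97% higher and 4.57% lower). The median log2 difference over the 82 was 0.27, against -0.02 over all genes. After quantile normalization the split was 14 higher and 7 lower. Against Q20, Q50 called 31 (15 higher, 16 lower, against 18.8% of all genes, 8.05% higher and 10.7% lower), Q92 37 (5 higher, 32 lower, against 25.8%, 9.88% and 15.9%) and Q111 39 (9 higher, 30 lower, against 28.3%, 12.2% and 16.1%). The medians were -0.15, -0.55 and -0.82, against 0.00, 0.06 and 0.03 over all genes. Quantile normalization gave 17 higher and 24 lower in Q92. No share over all genes is given for quantile normalization or with 1 library left out. Those counts are therefore not set against all genes. These 4 comparisons share the Q20 libraries. Leaving out 1 library gave 16 to 19 calls in Q50, 24 without Q92 replicate 1 in Q92, and 24 in Q111 without Q20 replicate 1 or either Q111 library.

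With WT in place of Q20, the share of rises was larger among channel genes than among all genes in Q50, Q92 and Q111. The share of falls was larger in Q92 and Q111 but smaller in Q50. Q50 against WT called 13 genes, 12 higher and 1 lower (6.62% of all genes, 4.54% higher and 2.08% lower), Q92 16, 9 higher and 7 lower (8.66%, 3.42% and 5.25%), and Q111 23, 11 higher and 12 lower (16.6%, 8.74% and 7.9%). The medians were 0.17, -0.18 and -0.18. The single fall in Q50 was Kcnj10. Kcnj3 changed direction with the reference: in Q111 the log2 difference was -3.02 ± 0.60 (SE), limma adjusted p = 0.00807 against Q20 and 0.31 ± 0.60 (SE), limma adjusted p = 0.743 against WT.

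**Figure D4:**
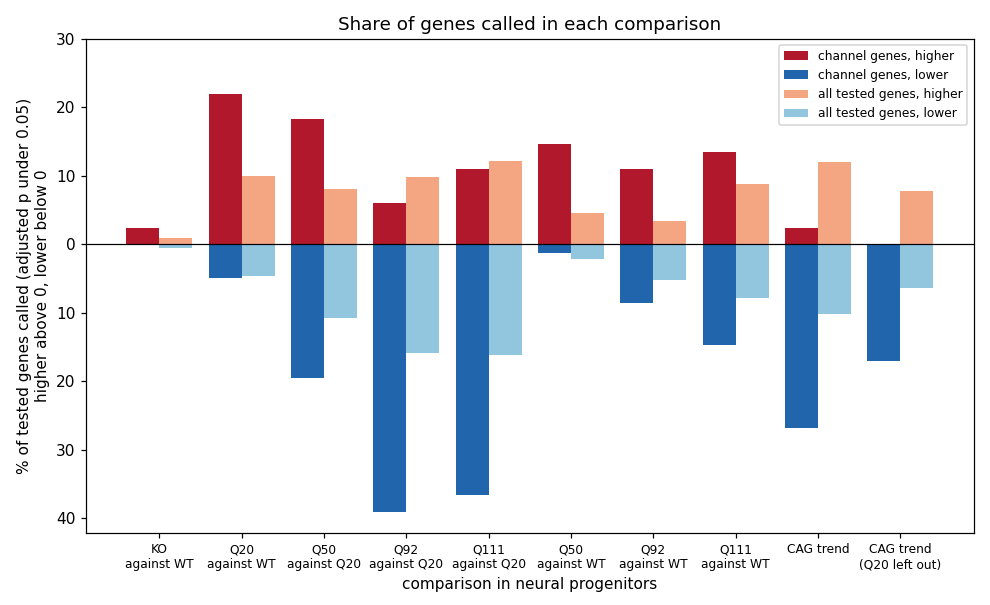
Percent of tested genes called higher (above 0) or lower (below 0) at a limma adjusted p under 0.05 in each NPC comparison, for the 82 channel genes (dark) and all 13206 tested genes (light). Falls among channel genes exceed those among all genes against Q20 and in the trend. With WT as the reference, rises among channel genes exceed those among all genes in Q50, Q92 and Q111. Falls against WT exceed those among all genes in Q92 and Q111 but not in Q50.

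Along the CAG length of the 4 knock-in lines, 24 of 82 genes had a slope that passed the test, 2 upward and 22 downward, where 22.0% of all genes were called (12.0% up and 10.1% down). The slope is the log2 change over the 91 repeats from 20 to 111. Quantile normalization gave 6 upward and 12 downward, and no share over all genes is given for that setting. The upward slopes were Kcnv1 (2.12 ± 0.57 (SE), limma adjusted p = 0.0320) and Kcnf1 (1.48 ± 0.36 (SE), limma adjusted p = 0.0241). The steepest falls were Kcna6 (-3.76 ± 1.02 (SE), limma adjusted p = 0.0336), Cacna1e (-3.07 ± 0.67 (SE), limma adjusted p = 0.0159), Kcnn2 (-2.89 ± 0.60 (SE), limma adjusted p = 0.0131), Kcnn3 (-2.58 ± 0.46 (SE), limma adjusted p = 0.00724) and Kcnk1 (-2.39 ± 0.38 (SE), limma adjusted p = 0.00493). The median slope was -0.86 against 0.04 over all genes. With 1 mean value per line, which leaves 4 points, no channel gene passed, and there were 7 calls without Q20 replicate 1, 8 without Q20 replicate 2, 13 without Q111 replicate 1 and 12 without Q111 replicate 2.

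With both Q20 libraries left out, 14 slopes passed, all downward, where 14.2% of all genes were called (7.85% up and 6.38% down). Of the 22 downward slopes 8 remained, and 6 others appeared. Cacna1e (-5.06 ± 0.70 (SE), limma adjusted p = 0.0126), Kcnn3 (-3.68 ± 0.61 (SE), limma adjusted p = 0.0172) and Kcnk1 (-3.58 ± 0.27 (SE), limma adjusted p = 0.00543) were among those that remained. Not called were Kcna6 (-5.43 ± 1.72 (SE), limma adjusted p = 0.0924), Kcnn2 (-1.46 ± 0.80 (SE), limma adjusted p = 0.279), Kcnv1 (1.61 ± 1.01 (SE), limma adjusted p = 0.339) and Kcnf1 (1.56 ± 0.65 (SE), limma adjusted p = 0.168). The levels of Kcnk1 and Cacna1e were high in both Q20 and Q50, whereas those of Scn1a and Kcns2 were highest in Q20 and lower in Q50. Of 8 fibroblast or feeder markers 6 had a downward slope on CAG length, and the 8 summed to 868 and 890 CPM in Q50, 309 and 248 in Q20, and 3.18 to 43.4 in the other 8 libraries, and their part in the result was not tested.

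Other genes of membrane excitability, from a list of 31 of which 28 were tested in NPC, were called as follows. Q20 against WT called 8 (6 higher, 2 lower), Q50 against Q20 12 (3 and 9), Q92 16 (3 and 13), Q111 16 (3 and 13) and the trend 8 (1 and 7), and KO against WT called 1, lower. Over all tested genes the shares called were 14.5%, 18.8%, 25.8%, 28.3%, 22.0% and 1.42%. Cntnap2, which clusters potassium channels along axons, was at 4.21 and 4.02 CPM in Q20 and 0 to 0.213 elsewhere (2.23 ± 0.11 (SE), limma adjusted p = 5.77e-06 on the log2 scale for Q20 against WT). The pacemaker channel gene Hcn4 was at 2.42 and 2.43 CPM in Q20 and 0.0677 to 0.228 elsewhere.

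In mESC, limma without the replicate block called none of the 77 tested channel genes in any comparison. With the replicate number as a block it called 5 for any genotype difference, 14 for Q20 against WT, 0 for KO against WT and 0 for the slope. Without the block, the shares over all 13916 tested genes were 0.201% for any genotype difference, 0.0144% for KO against WT (0.0144% higher and 0.0% lower), 0.323% for Q20 against WT (0.259% and 0.0647%) and 0.0% for the slope on CAG length in either direction. At an unadjusted p under 0.05, 10, 4, 15 and 3 of the 77 passed (12.99%, 5.19%, 19.5% and 3.90%), against 9.91%, 3.97%, 12.3% and 2.57% of all tested genes. The edgeR fit to recovered reads called none either. The medians were 0.10 for KO against WT, 0.08 for Q20 against WT and -0.11 for the slope, against 0.01, -0.04 and 0.01 over all genes.

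In mESC the replicate number marked a difference of its own. In 33 of the 77 genes (42.9%) the same replicate number was higher in all 6 genotypes, replicate 1 in 26 and replicate 2 in 7, against 41.4% of all tested genes. In NPC this held for 2 of 82 (2.44%, against 4.82%). Kcnk1 in mESC measured 32.1 and 10.9 CPM in WT, 27.8 and 15.0 in KO, 63.7 and 28.0 in Q20, 33.8 and 18.0 in Q50, 52.0 and 17.4 in Q92 and 65.6 and 19.8 in Q111. Every replicate 1 was above its partner. Cacna1h measured 5.67 and 2.80 CPM in WT, 10.4 and 1.70 in KO, 6.26 and 2.98 in Q20, 7.72 and 1.68 in Q50, 6.63 and 1.95 in Q92 and 6.95 and 1.40 in Q111, with the same order. Kcnk5, an alkaline-activated leak channel, measured 65.1 and 27.9 CPM in WT, 64.5 and 32.0 in KO, 24.2 and 21.6 in Q20, 39.4 and 37.1 in Q50, 38.8 and 31.1 in Q92 and 35.7 and 29.6 in Q111, so the lines overlapped except that Q20 was lowest. Cacnb3, a beta subunit, lay at 16.1 to 24.7 CPM and Cacng7 at 4.56 to 20.7.

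**Figure D5:**
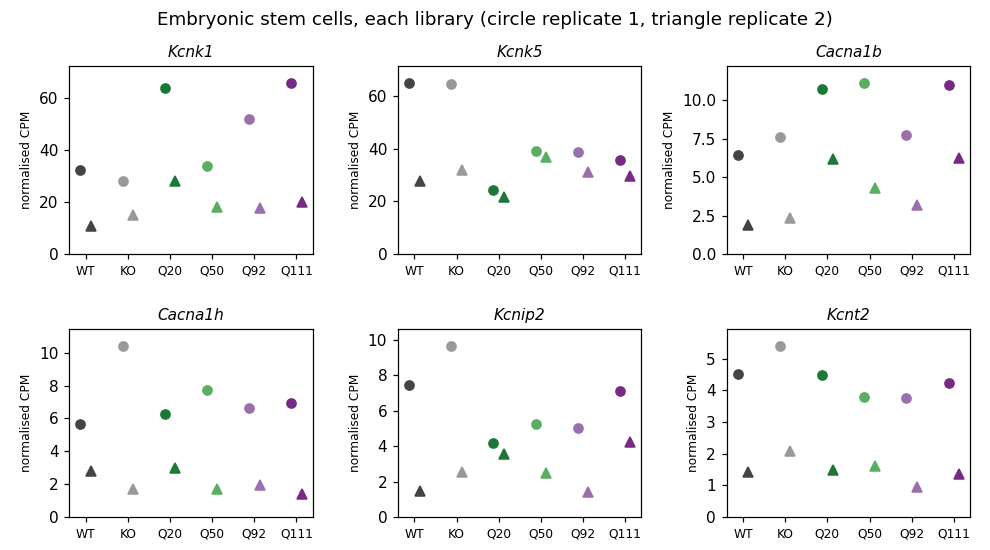
Normalised CPM of 6 channel genes in each mESC library, by genotype (circles replicate 1, triangles replicate 2; each panel has its own axis from 0). In every genotype replicate 1 lies above replicate 2 for all 6 genes, which were chosen after their values were seen.

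With the replicate number as a block in mESC, 5 of 77 genes differed among genotypes (8.67% of all tested genes) and 14 differed in Q20 against WT, 11 higher and 3 lower (10.6% of all genes, 5.91% higher and 4.69% lower). The block gave 0 calls for KO against WT (0.115% of all genes) and for the slope (0.0%). Of 7 tested fibroblast or feeder markers 3 were higher in Q20 than in WT in the fit without the block (median log2 difference 2.87), and the list summed to 149 and 119 CPM in Q20, 17.3 and 20.9 in WT, 17.1 and 14.9 in KO and 76.6 to 114 in the other knock-ins, and their part in the result was not tested. No marker of the other lists was called in that fit. Their median log2 differences were 0.73 (neural progenitor), 1.19 (neuron), 0.72 (astrocyte), 0.38 (oligodendrocyte lineage), 0.36 (muscle) and -0.45 (pluripotency). The progenitor list summed to 307 and 482 CPM in Q20, 111 and 178 in WT and 147 to 526 in the other lines. The part of these lists was not tested either. The 11 higher were Kcnj3, Kcnj12, Kcnq3, Kcnq5, Cacnb2, Kcnk1, Cacna1g, Kcnn4, Cacna1b, Kcng3 and Scn1a, and the 3 lower were Cacng7, Cacna2d2 and Kcnh7. Scn1a measured 1.14 and 0.927 CPM in Q20 mESC and 0.247 and 0.124 in WT (0.78 ± 0.18 (SE), limma adjusted p = 0.0375 on the log2 scale), and Kcng3 2.34 and 2.29 CPM in Q20 and 0.841 and 0.513 in WT (0.99 ± 0.16 (SE), limma adjusted p = 0.0141). Kcnj3 was at 18.4 and 1.83 CPM in Q20 and 0.478 and 0.124 in WT. Of the 11, 6 (54.5%) were also higher in Q20 against WT in NPC, which is 33.3% of the 18 higher there: Kcnj3, Cacnb2, Kcnk1, Cacna1g, Kcng3 and Scn1a. Over all genes 167 were higher in both, which is 20.3% of the mESC list and 12.7% of the NPC list. Cacna2d2 went the other way, lower in Q20 mESC at 1.36 and 0.758 CPM against 3.51 and 3.42 in WT and higher in Q20 NPC. The NPC and mESC of a genotype come from the same line, so they are not independent lines.

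The slope on CAG length differed between NPC and mESC for 2 of 63 genes tested in both, both lower in NPC, where 4.86% of all genes were called (2.7% with the higher slope in NPC and 2.16% with the lower). One was Kcnn2, with a difference of -3.01 ± 0.71 (SE), limma adjusted p = 0.0256, in the fit without the replicate block. In mESC Kcnn2 lay at 2.54 to 6.11 CPM over all libraries, with lines that overlapped. With both Q20 NPC libraries left out neither was called, and Cacng8 (-2.53 ± 0.58 (SE), limma adjusted p = 0.0303) and Scn2b (-2.76 ± 0.70 (SE), limma adjusted p = 0.0449) were, against 4.19% of all genes.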

How the data were processed

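The authors deposited 1 table of normalised read counts per cell type (signal values scaled to library size, CPM, with gene identifiers and MGI symbols). Per the submitters' processing notes, CASAVA 1.8, STAR and GRCm38.p6 were used; the counting tool, its strand setting and the normalisation are not given in the sources used here. Repeated identifiers were used once. Whole reads were recovered for 100% of values (tolerance 0.1 read). Channel genes were taken by symbol, and sorted into classes by symbol. Genes at 1 CPM or more in at least 2 libraries were tested on log2(CPM + 1) with limma 3.58.1 (R 4.3.3): a mean per genotype over the 12 libraries of a cell type, a slope on CAG length over the 8 knock-in libraries, and its interaction with cell type over 16. A log2 difference on this scale understates the change of low genes. P-values were adjusted by Benjamini-Hochberg over all genes tested and called under 0.05. edgeR 4.0.16 on recovered reads was an alternative, and the fits were tested on simulated data. Genes described in full are mainly the 5 largest called rises and falls of each NPC comparison with at least 1 CPM in the higher group; others were added after their values were seen. The members and lists were chosen with earlier results of these data known. In mESC, differences between replicates 1 and 2 correlated across genes between genotypes (r 0.25 to 0.55, 15 of 15 pairs over 0.1), so replicate numbers were taken to pair the mESC libraries. Blocked values stand beside the results within mESC. For the slope difference between cell types only the blocked count is given, and its gene values come from the fit without the block. Some channel and related genes are counted but not reported here by name.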

Additional observations from a re-analysis of the deposited data

Results flagged for a closer look

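The slope on CAG length differed between NPC and mESC, by the interaction test, for Kcnn2, a small-conductance calcium-activated pore. Over 91 repeats the difference, NPC minus mESC, was -3.01 ± 0.71 (SE, limma adjusted p = 0.0256), with slopes of -2.89 in NPC and 0.12 in mESC. These values come from the fit without the replicate block, and in mESC Kcnn2 was higher in replicate 1 than in replicate 2 in every genotype. With both Q20 NPC libraries left out, the slope difference was not called. The markers high in those libraries are given in the report, and their part in this difference was not tested.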

How the results depend on the processing

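Values here are counts of channel genes called. Where no share over all genes is given above for a setting, its count is not set against all genes. For any NPC difference, leaving out both Q20 libraries (chosen after seeing the data) gave 36, and leaving out 1 library 46 to 64. KO against WT in NPC gave 1 with edgeR, 0 from only the libraries of both groups, and 2 to 12 on leaving out 1 library, 12 without WT replicate 2. Q20 against WT gave 9 from only the libraries of both groups and 16 to 28 on leaving out 1. With Q20 as the reference, Q50 gave 31, Q92 37 and Q111 39. Leaving out 1 library against Q20 gave 16 to 19 in Q50, 24 to 29 in Q92 and 24 to 28 in Q111. With WT in place of Q20, Q50 gave 13, Q92 16 and Q111 23. The NPC slope gave 12 with the replicate block, 0 with 1 mean per line, 14 without both Q20 libraries, and 7 to 24 on leaving out 1. In mESC, any difference gave 5 with the replicate block, and Q20 against WT gave 1 with no filter, 14 with the replicate block and 0 to 1 on leaving out 1. The slope difference between cell types gave 4 with a pseudocount of 0.25, 6 with no filter, 8 with edgeR, 5 with the replicate block, 0 with 1 mean per line, 6 on log2 length and 1 to 4 on leaving out 1. In NPC, replicate differences correlated between genotypes at -0.05 to 0.47, over 0.1 in 3 of 15 pairs, so the numbers were not taken as pairs. The log2 difference of Kcnj3 in Q111 became 0.31 with WT in place of Q20. Over the single named genes, 493 repeated values kept direction and call, 115 kept direction and lost the call, and 1 reversed. The cause of these shifts was not tested. With 2 libraries per line, small changes are not detectable, and genes of few reads rest on counting error.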
